A study of Drosophila melanogaster with 16 samples.

Results

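Cytochrome P450 genes carry a family-and-letter name that begins with Cyp, and 78 of the 12286 genes in the table of fly head RNA had such a symbol once Cyp4g1, the oenocyte enzyme of cuticular hydrocarbon synthesis, was left out. The rule used names only and no measured value. RNA was measured by sequencing in heads of Drosophila melanogaster at 10 days after eclosion. The fly genome annotation holds 85 genes whose symbols fit the pattern, Cyp4g1 among them, so nearly the whole named family was measured. All 78 members passed the filter on low values (in at least 4 libraries, a normalized count of 1 or more), 73 had reads in every library, and 5 (Cyp6a18, Cyp4ad1, Cyp6a16, Cyp304a1 and Cyp313a4) were at 0 in at least 1 library.

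P450 enzymes are haem proteins that insert an oxygen atom into small lipophilic molecules. Insect P450s are grouped in 4 clans. The CYP3 and CYP4 clans hold most enzymes that act on plant toxins, insecticides, fatty acids and hydrocarbons, whereas the CYP2 and mitochondrial clans include the enzymes that make and break down the steroid hormone ecdysone. In the fly head they are known from fat body, glia, sensory organs and mushroom bodies, and single members have been tied to courtship, aggression and temperature preference.

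The flies carried wild-type human α-synuclein, a synaptic protein found in the Lewy bodies of Parkinson's disease, in glia and neurons together, in glia, in neurons or in neither. Flies of the group labelled both had the genotype SybQF2, RepoGAL4, QUASSyn/UAS-Syn. Glia flies were SybQF2, RepoGAL4/UAS-Syn, neuron flies were SybQF2, RepoGAL4, QUAS-Syn/+, and control flies were SybQF2, RepoGAL4/+. Every group, control included, therefore carried a GAL4 driver under the pan-glial Repo promoter and a Q-system driver under the pan-neuronal Synaptobrevin promoter. A library was a pool of 6 heads from 3 males and 3 females, and 4 both, 3 glia, 3 neuron and 3 control libraries were measured (both 1 to 4, glia 1, 2 and 4, neuron 1 to 3, control 1 to 3). The remaining 3 of the 16 labelled samples were not analysed here. The replicate number is the labelled batch, so a batch holds at most 1 library of a group. The transgene has no row in the table, and its level was not analysed here.

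Libraries held 2808960 to 4767799 reads in genes. Values are normalized counts, that is, reads divided by the authors' factor for each library. All 14 photoreceptor markers, 24 neuronal markers and 10 glial markers were read in every library, which fits the labelled tissue. Markers of other organs were present unequally. The 13 midgut markers summed to 64.0 to 8919 normalized counts in the both-group libraries, 17164 to 26768 in glia, 387 to 4378 in neuron and 4201 to 10531 in control libraries, and up to 7 of the 13 were at 0 in a both-group library. The 5 oenocyte markers, Cyp4g1 among them, summed to 35.7 to 474 in both-group, 4801 to 25862 in glia, 400 to 2870 in neuron and 4381 to 18107 in control libraries. The 24 neuronal markers summed to 57615 to 62524 in both-group, 24606 to 51435 in glia, 52065 to 61121 in neuron and 39951 to 43937 in control libraries. The 9 fat body markers summed to 128710 to 335310 in both-group and 66329 to 189240 in glia libraries. In neuron and control libraries they summed to 132900 to 168380 and 134130 to 220840. The highest fat body sum was that of both 1. The 14 muscle markers summed to 29106 to 48045 in both-group and 44384 to 71404 in glia libraries. In neuron and control libraries they summed to 37670 to 64721 and 65544 to 81803. The part of these markers in the P450 results was not tested. In bulk RNA, fewer cells of a type and less RNA per cell cannot be told apart.

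The family's RNA was unevenly spread over its members. To compare genes, normalized counts were divided by the length of each gene's exons. On this scale Cyp313a1 was highest, with a mean of 662 per kb over the 13 libraries, followed by Cyp4d21 with 419, Cyp6d5 with 389 and Cyp9f2 with 331. Cyp28d1 had 230, Cyp6w1 216 and Cyp6g1 212 per kb, and the lowest member, Cyp304a1, had 1.66. The first 2 members held 19.1% of the summed per-kb level, the first 10 held 52.9% and the first 20 held 74.2%. By mean normalized count, 29 members had at least 100, 40 had 10 to 100 and 9 had under 10.

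**Figure D1:**
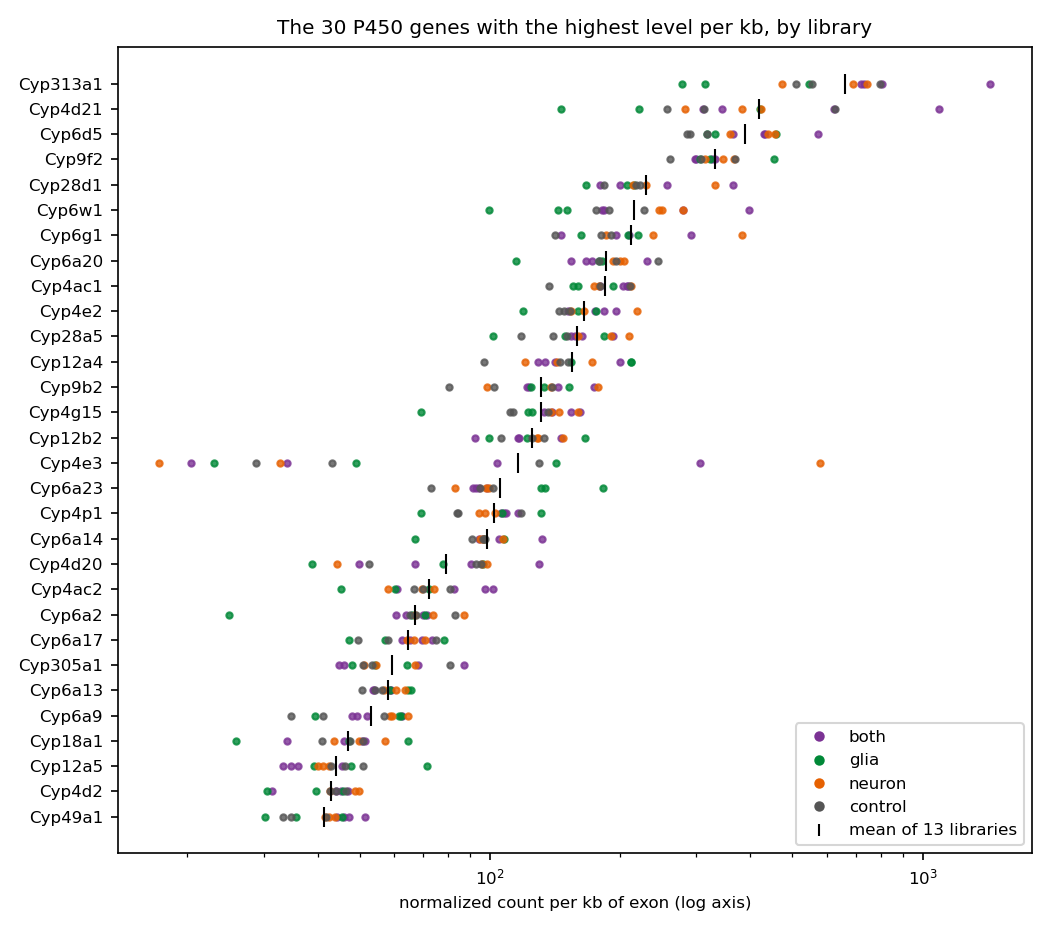
Level of the P450 genes with the highest means, as normalized count per kb of exon on a log axis; dots are the 13 libraries coloured by group and ticks are gene means. The means fall steeply between 662 for Cyp313a1 and 165 for the tenth gene, Cyp4e2, and the dots of Cyp4e3 are spread the most.

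The CYP3 clan had 37 members, the CYP4 clan 28, the mitochondrial clan 9 and the CYP2 clan 4. The largest families were CYP6 with 23 and CYP4 with 21 members. Genes lay mainly on chromosome arm 2R (34), with 13 each on X and 2L, 12 on 3R and 6 on 3L, and 39 were within 5 kb of another member. Exons of 24 members overlapped exons of another annotated gene or element. The strand setting of the authors' counting is not given in the sources used here, so reads of such pairs may have been shared or lost.

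Summed over the 78 members, normalized counts came to 11611 ± 1285 in both-group libraries, 9548 ± 1192 in glia, 10978 ± 1108 in neuron and 9771 ± 836 in control libraries (SD, n = 4, 3, 3 and 3). The ranges overlapped, at 10230 to 13198 in both-group, 8188 to 10413 in glia, 10116 to 12228 in neuron and 8923 to 10594 in control libraries. The family took 0.234% to 0.372% of all normalized counts in a library. Cyp4g1 alone averaged 146 ± 184 in both-group, 11569 ± 10107 in glia, 1165 ± 1292 in neuron and 8258 ± 7203 in control libraries. The CYP4 clan summed to 4919 ± 1371 in both-group, 3053 ± 715 in glia, 4081 ± 233 in neuron and 3819 ± 587 in control libraries. The CYP3 clan summed to 5507 ± 702 in both-group, 5220 ± 521 in glia, 5724 ± 776 in neuron and 4832 ± 395 in control libraries. The CYP4 sums of the both-group libraries (3861 to 6898) lay above those of the glia libraries (2366 to 3793), whereas the CYP3 ranges overlapped. Cyp313a1, of the CYP4 clan, alone made up 9.75% to 17.6% of the family's sum in both-group and 5.08% to 8.52% in glia libraries. The CYP4 sums thus lean on single abundant genes and do not describe the clan as a whole.

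**Figure D2:**
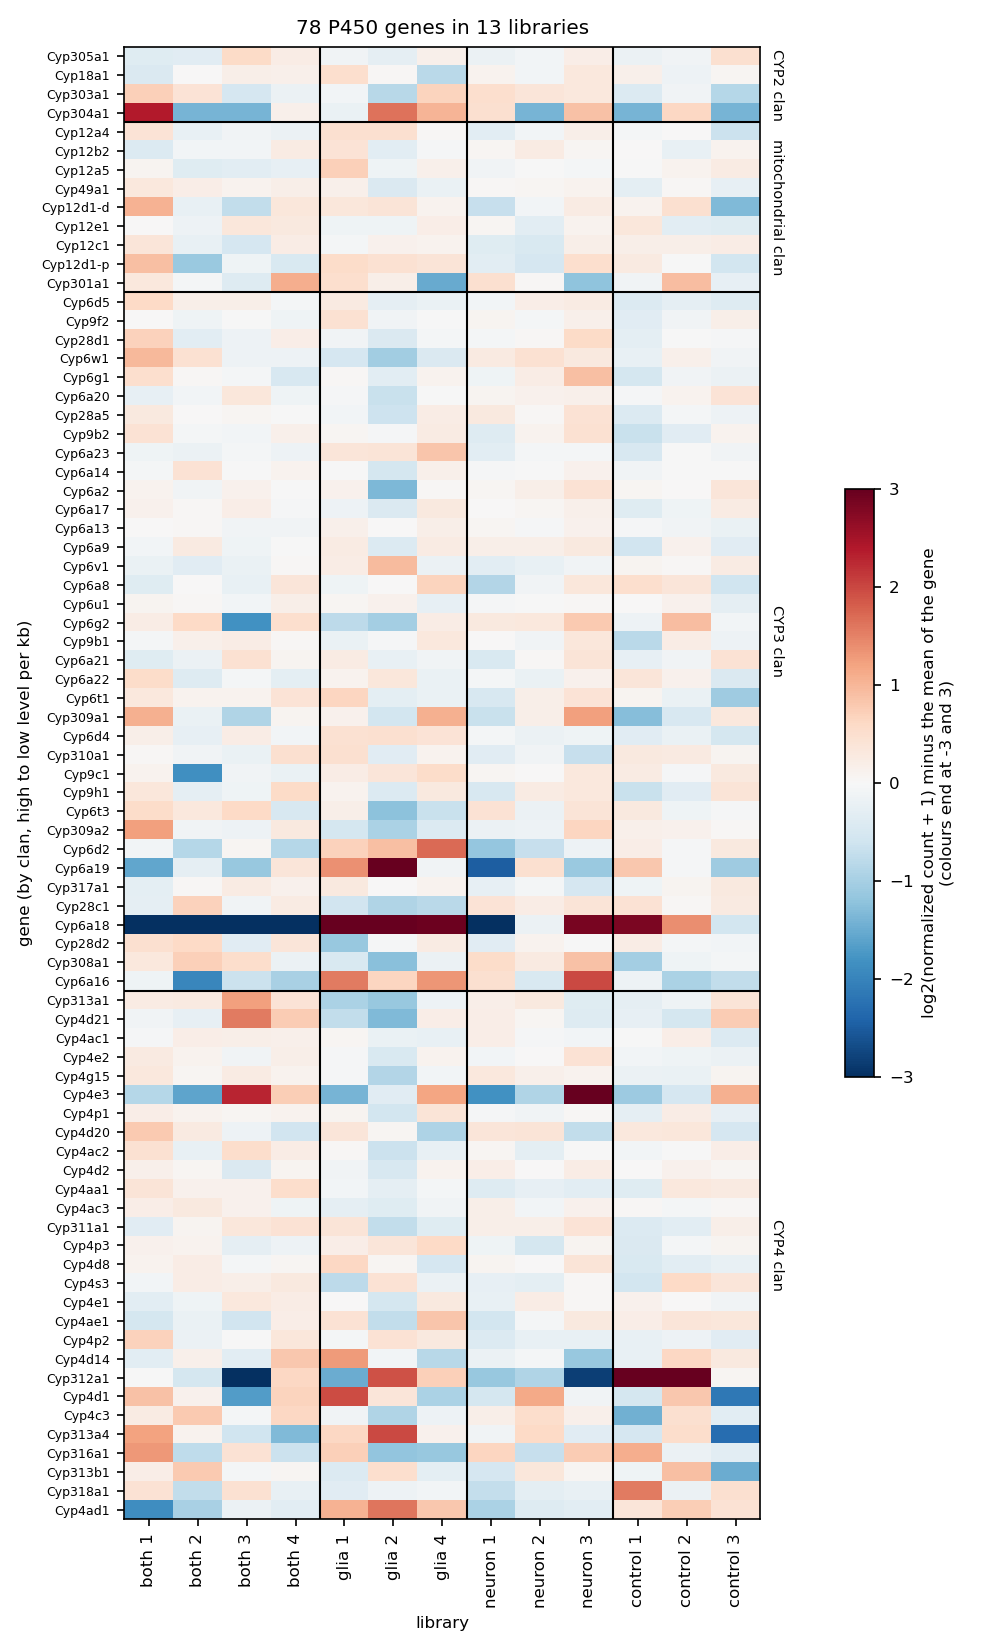
Level of every P450 gene in each of the 13 libraries, as the difference in log2(normalized count + 1) from the gene's mean over libraries, with the groups set side by side, the genes sorted by clan and the colours ending at 3 in either direction. The strongest colours belong to a few genes such as Cyp6a18, which is at 0 in all 4 both-group libraries. The wide colour range makes smaller differences pale.

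The first question of the design is what α-synuclein in glia, in neurons or in both cell types did to the family. Limma was run on log2(normalized count + 1) values for 12181 tested genes, with Benjamini-Hochberg adjusted p under 0.05 as the threshold. Fold changes are differences on that scale, which understates the change of low genes. No P450 gene passed in glia against control, where 0.772% of all genes did (0.747% higher and 0.0246% lower), and limma gave 9 members (11.5%) an unadjusted p under 0.05, beside 10.1% of all genes. None passed in neuron against control (0% of all genes; unadjusted, 8 members or 10.3%, beside 12.3% of all genes) or in both against control (1.01% of all genes, 0.0246% higher and 0.985% lower; unadjusted, 6 members or 7.69%, beside 19.5% of all genes). The all-gene share in both against control was 0.00821% with the replicate block, 0% with limma-voom and without both 1 or control 1, and 7.13% without glia 2. A second test, limma-voom on the reads recovered from the values, also called no member in these 3 comparisons.

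As a family the members stayed near 0 on the log2 scale. Their median difference was 0.03 in glia, 0.07 in neuron and 0.16 in both-group against control libraries, with 42, 48 and 50 of the 78 differences positive. The medians of all tested genes were -0.03, -0.06 and -0.05. When each library was centred on its neuronal markers, the members' medians became -0.29 for neuron and -0.30 for both against control, beside all-gene medians of -0.41 and -0.52, so the sign of these small shifts depends on the scaling.

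**Figure D3:**
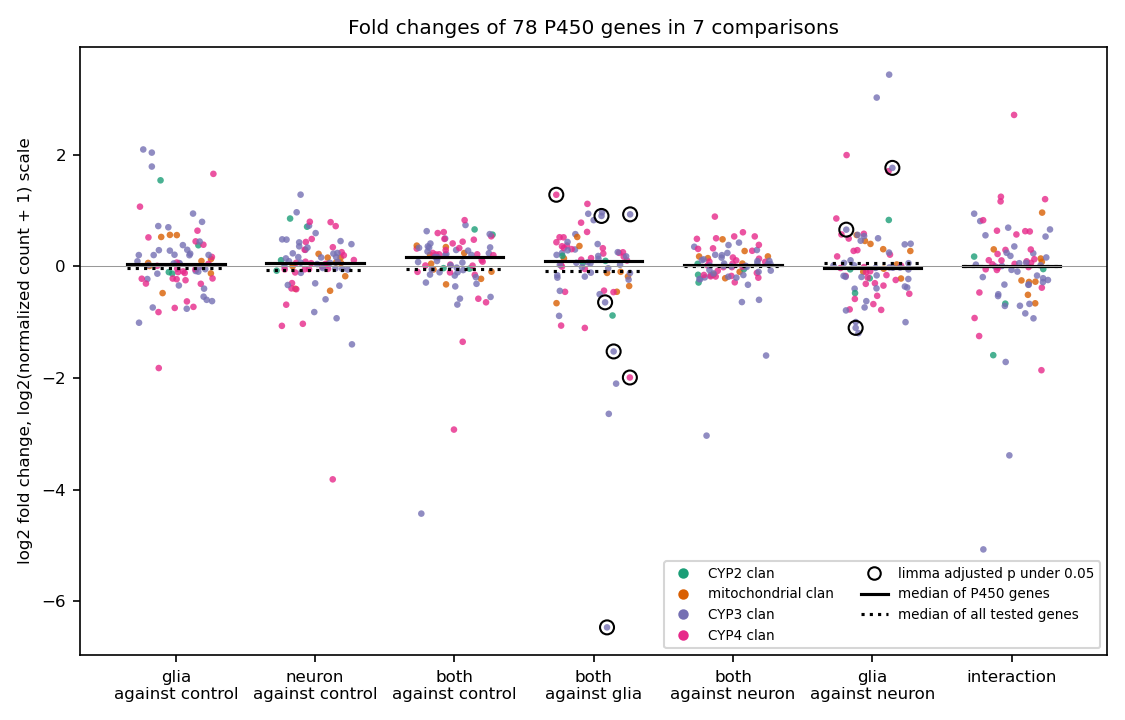
Log2 fold change of 78 P450 genes in 7 comparisons, coloured by clan, with circles round genes past the adjusted threshold. Solid lines mark the median of the P450 genes and dotted lines the median of all tested genes. Circles appear in both against glia (7) and glia against neuron (3), and the sign of the medians depends on the scaling between libraries.

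In glia against control, the 3 members with the smallest p were Cyp6a23, Cyp6d4 and Cyp28c1. Cyp6d4, one of the genes listed for xenobiotic metabolism, had 61.1, 62.2 and 58.5 normalized counts in glia 1, 2 and 4, against 34.7, 38.5 and 30.5 in control 1, 2 and 3. The 3 glia libraries were closely alike and all above the controls, and the difference was 0.80 (SE 0.17, limma adjusted p = 0.0574). Cyp6d4 had 49.8, 36.7, 51.3 and 41.5 in the both-group and 42.6, 39.1 and 40.4 in neuron libraries, all below the glia libraries. Within batches 1 and 2, its glia library exceeded the control by 0.80 and 0.68 on the log2 scale.

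Neuron against control gave its smallest p values to Cyp312a1, Cyp6d5 and Cyp308a1. Cyp312a1, of the CYP4 clan, had 5.32, 6.37 and 0.961 normalized counts in neuron 1, 2 and 3, against 148, 120 and 13.3 in control 1, 2 and 3. All neuron libraries were below all controls, but the control in batch 3 was far below the other two. The difference was -3.82 (SE 1.12, limma adjusted p = 0.255), and the gene passed only when control 3 was left out (adjusted p = 0.0473). Its both-group values were 12.8, 8.54, 0.744 and 20.3 and its glia values 3.90, 51.0 and 21.7. The 13 accessory gland markers summed to 29.0 to 43.6 in both-group, 27.3 to 907 in glia, 29.1 to 70.1 in neuron and 479 to 6998 in control libraries. In control 1, 2 and 3 they summed to 6998, 479 and 4979, an order unlike that of Cyp312a1. The 3 ejaculatory bulb markers summed to 10042, 7870 and 4196 in control 1, 2 and 3. Of these, Peb and PebII fell in that order, as Cyp312a1 did, and PebIII did not. Ejaculatory bulb sums were 4257 to 5408 in both-group, 2477 to 3392 in glia and 2606 to 3856 in neuron libraries. PebIII made up most of these sums, at 4234 to 5408, 2472 to 3112 and 2589 to 3855. Peb had 17.9, 0, 0 and 0.965 in both-group, 2.60, 540 and 7.59 in glia and 13.3, 0.909 and 0 in neuron libraries. Its control values were 4151, 1908 and 167. PebII had 5.11, 0, 0 and 0.965 in both-group, 2.60, 295 and 0 in glia and 4.43, 0 and 0 in neuron libraries. In control libraries PebII had 2854, 954 and 87.5. The part of either organ in the Cyp312a1 values was not tested.

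Cyp308a1, a low-level CYP3-clan gene, had 16.8, 13.6 and 21.1 in neuron against 4.96, 10.1 and 10.6 in control libraries (difference 0.97, SE 0.39, limma adjusted p = 0.378). Cyp6d5 was the third most abundant member per kb. It had 941, 706, 708 and 599 normalized counts in both 1 to 4, 750, 521 and 544 in glia, 589, 718 and 746 in neuron and 469, 521 and 476 in control libraries. Every both-group and neuron library was above every control library, and the glia libraries reached down to the control range. The differences were 0.58 (SE 0.16) for both and 0.48 (SE 0.17) for neuron against control, with limma adjusted p of 0.102 and 0.358. Within batches 1, 2 and 3 the both-group library was higher than control by 1.00, 0.44 and 0.57. The both against control difference passed without glia 2 (adjusted p = 0.0451) and not when any other single library was left out.

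The largest differences in the family lay between both-group and glia heads. There, 7 members passed (8.97% of the 78, beside 7.86% of all tested genes), 3 higher and 4 lower in both-group libraries, beside 3.11% and 4.75% of all genes. The share of members called was thus near that of all genes. The P450 median was 0.10 and the all-gene median -0.07. With libraries centred on neuronal markers the median of all genes moved to -0.66 and that of the members to -0.49, 26.6% of all genes passed, and the split among the members was 0 higher and 17 lower. The direction of the family as a whole is thus set by the scaling, and the 3 members higher in the both group no longer passed under it, while the 4 lower members still did. With control 1 and glia 2 left out together, Cyp6a18 and Cyp6a23 were the 2 members that still passed, and the share of all genes was 2.91%. These libraries, with the highest oenocyte marker sums (18107 and 25862, mostly Cyp4g1), were picked as those with RNA of other organs. The choice thus used values of these same data. It left other such RNA in place. Midgut sums were 26768 in glia 1 and 17164 in glia 4, which were kept, beside 17937 in glia 2 and 4201 in control 1.

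**Figure D4:**
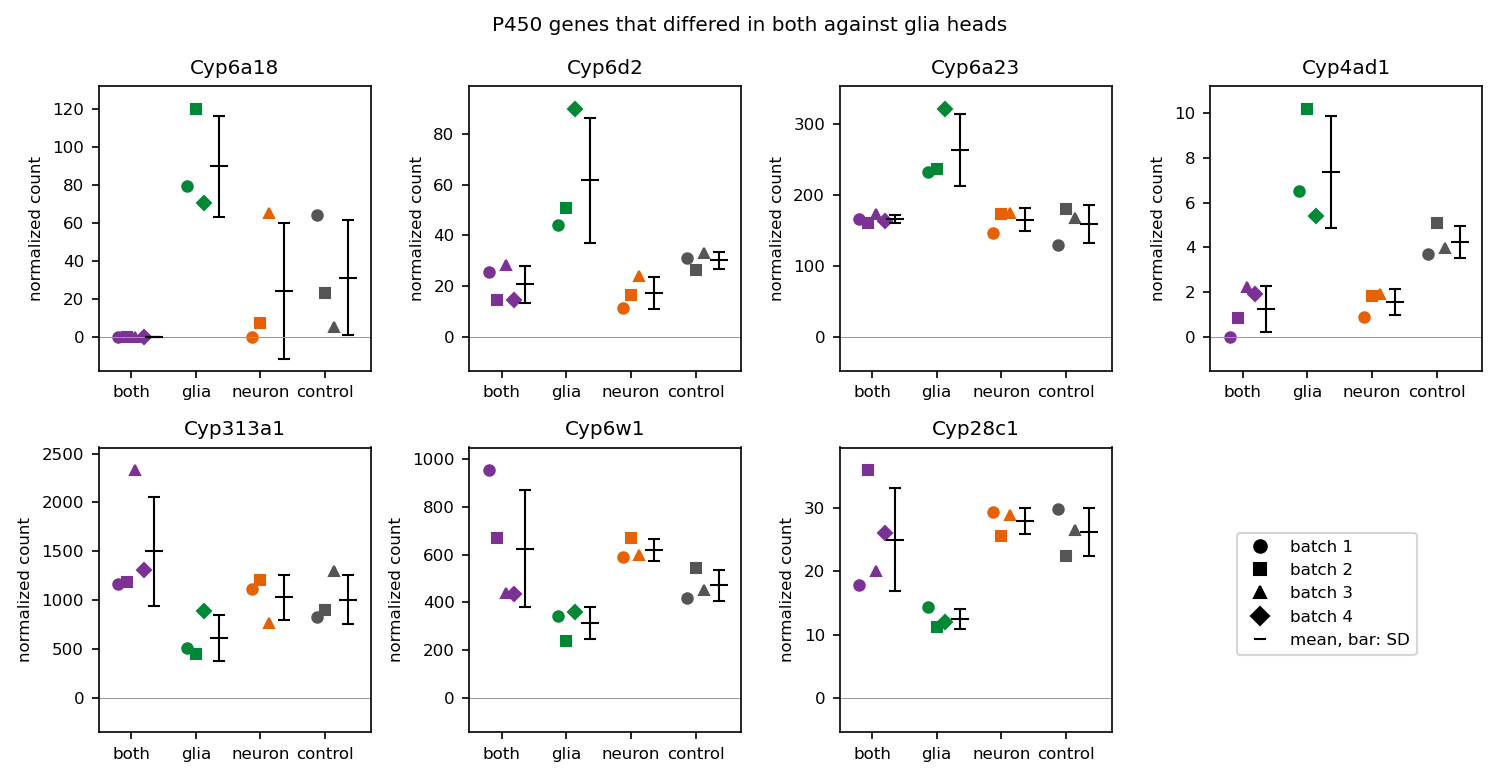
Normalized counts of the 7 P450 genes past the threshold in both against glia, by library, with the mean and SD of each group; marker shapes give the labelled batch. In the upper row the glia libraries sit above the others, with Cyp6a18 at 0 in all both-group libraries, and in the lower row they sit at the low end.

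Cyp6a18 (chromosome 3R, 27478675 to 27482904, BDGP6) had no read in any of the 4 both-group libraries. It had 79.3, 120 and 70.5 normalized counts in glia 1, 2 and 4, 0, 7.28 and 65.3 in neuron 1, 2 and 3, and 64.5, 23.3 and 5.30 in control 1, 2 and 3. Glia libraries were the highest of all, and the neuron and control libraries spread widely between them and 0. Taking 3 reads over the group as the floor (a normalized count of 0.720), the glia mean of 90.0 was at least 125-fold higher, so the level in both-group heads was at least 125-fold lower than in glia heads. The fitted difference was -6.47 (SE 1.09, limma adjusted p = 0.00446), and it passed in all 13 fits that left out 1 library. In batches 1, 2 and 4 it was -6.33, -6.92 and -6.16.

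Against control, where the mean was 31.0, Cyp6a18 was at least 43.1-fold lower in both-group libraries, but the fitted difference of -4.43 (SE 1.09) had a limma adjusted p of 0.0724 and passed in 4 of those 13 fits (without glia 2, neuron 1, neuron 3 or control 3). Centred on neuronal markers it passed (adjusted p = 0.0236). The bound rests on control 1, without which the control mean was 14.3 and the bound 19.9-fold. Of the Malpighian tubule markers, Uro, the urate oxidase gene, singled out after its values were seen, had 0, 0, 0 and 1.93 in both-group, 101, 199 and 218 in glia, 0, 0 and 19.2 in neuron and 45.9, 19.3 and 17.2 in control libraries. Of the other tubule markers, Irk1, Vha100-4, ZnT35C and CapaR were also lower in every both-group than in every glia library. Best2, LKR and ClC-c were not. LKR had 266, 233, 282 and 259 in both-group against 178, 219 and 209 in glia libraries, and ClC-c ran between 444 and 531 in all 13 libraries. The 8 tubule markers summed to 1192 to 1243 in both-group, 1560 to 1796 in glia, 1132 to 1187 in neuron and 1324 to 1388 in control libraries. The part of tubule or gut RNA in the Cyp6a18 values was not tested.

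Cyp6d2 (2R, 22652573 to 22654530), which has been linked to survival of flies on the plant alkaloid camptothecin, was lower in both-group than in glia heads and higher in glia than in neuron heads. It had 25.5, 14.5, 28.3 and 14.5 in both-group, 44.2, 51.0 and 90.0 in glia, 11.5, 16.4 and 24.0 in neuron and 31.0, 26.4 and 33.1 in control libraries. The 3 glia libraries exceeded every other library. The differences were -1.52 (SE 0.33, limma adjusted p = 0.0181) for both against glia and 1.77 (SE 0.36, adjusted p = 0.0182) for glia against neuron. Within batches the values were -0.77, -1.74 and -2.56 for both against glia (batches 1, 2 and 4) and 1.85 and 1.58 for glia against neuron (batches 1 and 2). Without both 2 the first had an adjusted p of 0.0532, and without neuron 1 or neuron 2 the second had 0.104 and 0.0539. Its exons overlap those of nsr on the opposite strand, and nsr had at most 12.4 normalized counts in any library.

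Cyp6a23 (2R, 14875829 to 14877654) was the best measured of the glia-high members. It had 166, 161, 173 and 163 in both-group, 231, 236 and 321 in glia, 146, 173 and 175 in neuron and 129, 179 and 167 in control libraries. Both-group, neuron and control libraries shared one narrow range, and all 3 glia libraries lay above it. The difference was -0.64 for both against glia (SE 0.14, limma adjusted p = 0.0182; -0.48, -0.55 and -0.97 in batches 1, 2 and 4) and 0.66 for glia against neuron (SE 0.15, adjusted p = 0.0353; 0.66 and 0.44 in batches 1 and 2). Without both 2 the first had an adjusted p of 0.0501. With the batch as a replicate block the second had an adjusted p of 0.0690, and it also missed the threshold without both 1, both 2, glia 2 or any 1 neuron library (0.0523 to 0.176). For glia against control it was 0.72 (SE 0.15, adjusted p = 0.0502), just above the threshold.

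Cyp6a23 sits in a run of 9 members spanning 31.7 kb of chromosome 2R (14871366 to 14903095), in the order Cyp6a22, Cyp6a17, Cyp6a23, Cyp6a19, Cyp6a9, Cyp6a20, Cyp6a21, Cyp6a8 and Cyp317a1. None of its neighbours passed in both against glia. Cyp6a22, Cyp6a17, Cyp6a9, Cyp6a20, Cyp6a21, Cyp6a8 and Cyp317a1 lay between -0.24 and 0.21, although Cyp6a9 passed when libraries were centred on neuronal markers (-0.60, limma adjusted p = 0.0366). Cyp6a19, whose exons overlap those of Cyp6a9, had -2.64 with a limma adjusted p of 0.115. Its values were 2.55, 7.69, 3.72 and 12.5 in both-group, 26.0, 275 and 8.67 in glia, 0.887, 13.6 and 3.84 in neuron and 17.4, 9.13 and 3.98 in control libraries, so the single library glia 2 stood far above the rest. Without glia 4 it passed, with -3.70 and an adjusted p of 0.0295. Cyp6a17, Cyp6a22 and Cyp6a23 are close copies, and reads could have been split between them.

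Cyp4ad1 (2R, 8439395 to 8442806) was a low-level gene. It had 0, 0.854, 2.23 and 1.93 in both-group, 6.5, 10.2 and 5.42 in glia, 0.887, 1.82 and 1.92 in neuron and 3.72, 5.07 and 3.98 in control libraries. The groups in which neurons carried α-synuclein had the lowest values, and the glia libraries the highest. Both against glia gave -1.99 (SE 0.47, limma adjusted p = 0.0254; -2.91, -2.59 and -1.13 in batches 1, 2 and 4), and both against control gave -1.35 (SE 0.47, adjusted p = 0.161). These levels rest on few reads, and the call was lost without both 1, both 2 or glia 2 (adjusted p of 0.0595, 0.0615 and 0.0990) or with a pseudocount of 0.1 (0.0674). A filter of 10 normalized counts removed the gene.

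Cyp313a1 (3R, 14521049 to 14523064), the most abundant member per kb, was higher in both-group than in glia heads. It had 1171, 1186, 2329 and 1311 in both 1 to 4, against 510, 452 and 887 in glia 1, 2 and 4, with 1118, 1206 and 769 in neuron and 826, 899 and 1296 in control libraries. The both-group and glia libraries did not overlap, and both 3 was far above the others of its group. The difference was 1.28 (SE 0.29, limma adjusted p = 0.0197; 1.20, 1.39 and 0.56 in batches 1, 2 and 4). Without glia 2 the adjusted p was 0.0841, and with libraries centred on neuronal markers the difference was 0.70 with an adjusted p of 0.0639. No role is given here for this enzyme.

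Cyp6w1 (2R, 6173684 to 6176195), a CYP3-clan gene linked to DDT tolerance, had 952, 669, 438 and 435 in both-group, 343, 238 and 361 in glia, 589, 669 and 598 in neuron and 420, 542 and 451 in control libraries. Glia libraries were the lowest of the 13, and the both-group libraries of batches 3 and 4 lay in the control range. The both against glia difference was 0.93 (SE 0.24, limma adjusted p = 0.0386; 1.47, 1.49 and 0.27 in batches 1, 2 and 4). It did not pass with the replicate block (adjusted p = 0.0527), without glia 2 (0.74, adjusted p = 0.143; both 1, both 2, control 1 and each neuron library also decided the call) or centred on neuronal markers (0.34, adjusted p = 0.223). Glia against neuron gave -1.0 (SE 0.26, adjusted p = 0.0585).

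Cyp28c1 (X, 11839608 to 11841503) had 17.9, 35.9, 20.1 and 26.1 in both-group, 14.3, 11.2 and 11.9 in glia, 29.3, 25.5 and 28.8 in neuron and 29.8, 22.3 and 26.5 in control libraries. The glia libraries were the lowest, and the other 3 groups overlapped. It passed narrowly, with 0.90 for both against glia (SE 0.25, limma adjusted p = 0.0470; 0.30, 1.59 and 1.07 in batches 1, 2 and 4) and -1.10 for glia against neuron (SE 0.27, adjusted p = 0.0458; -0.98 and -1.12 in batches 1 and 2). With the replicate block the adjusted p values were 0.0860 and 0.111, and with limma-voom 0.0769 and 0.0697. Of the 13 fits that left out 1 library, the first call held in 1 (without both 1) and the second in 4 (without both 1, both 2, glia 1 or glia 4). Glia against control gave -1.01 (SE 0.27, adjusted p = 0.148).

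Glia against neuron, which sets the same transgene in one cell type against the other, thus had 3 called members (3.85% of the 78, beside 3.24% of all tested genes): Cyp6d2 and Cyp6a23 were higher and Cyp28c1 lower in glia heads, beside 2.66% and 0.583% of all genes. With the replicate block only Cyp6d2 passed (adjusted p = 0.0380, limma), and without control 1 and glia 2 only Cyp6a23 did (adjusted p = 0.0362). The members' median was -0.03 and the all-gene median 0.06, or 0.45 and 0.53 with libraries centred on neuronal markers. Cyp6a18 had 3.44 (SE 1.17, adjusted p = 0.124) in this comparison, with neuron 3 close to the glia libraries, and passed without neuron 3 (4.95, adjusted p = 0.0170).

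No member passed in both against neuron (0% of all genes), where limma gave 3 members (3.85%) an unadjusted p under 0.05, beside 4.24% of all genes. The smallest p belonged to Cyp4aa1, which had 107, 88.8, 89.3 and 118 in both-group against 62.1, 68.2 and 65.3 in neuron libraries, with 76.7, 67.3 and 78.1 in glia and 63.2, 102 and 98.1 in control libraries. The both-group and neuron libraries did not overlap, and the difference was 0.61 (SE 0.17, limma adjusted p = 0.865). Cyp6a16, whose mean was under 10, had 2.55, 0, 1.49 and 0.965 in both-group, 10.4, 5.10 and 8.67 in glia, 4.43, 1.82 and 14.4 in neuron and 2.48, 1.01 and 1.33 in control libraries. Glia and neuron libraries were above the control and both-group levels, except neuron 2 at 1.82. Its difference was -1.60 (SE 0.60, adjusted p = 1) for both against neuron and -2.10 (SE 0.60, adjusted p = 0.0515) for both against glia. The difference from glia passed with the replicate block, with TMM scaling, centred on neuronal markers and without neuron 2 or neuron 3. Those limma adjusted p values ran from 0.0134 to 0.0488, and the gene passed in no other setting.

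The interaction, both minus glia minus neuron plus control, asks whether the joint genotype departed from the sum of the single ones. It called no member (0.0821% of all genes), and 8 (10.3%) had an unadjusted limma p under 0.05, beside 7.30% of all genes. Cyp6a16 had -3.39 (SE 0.88, adjusted p = 0.295), Cyp6a23 had -0.71 (SE 0.21, adjusted p = 0.333) and Cyp4aa1 had 0.83 (SE 0.25, adjusted p = 0.382). The interaction does not compare every pair of contrasts that is set side by side here. A gene that passes in one contrast and misses the threshold in another is not thereby shown to differ between them.

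Grouped by clan, both against glia called 5 of 37 CYP3 members (2 higher, 3 lower), 2 of 28 CYP4 members (1 higher, 1 lower), 0 of 9 mitochondrial and 0 of 4 CYP2 members, by limma, where 7.86% of all genes were called. An unadjusted p under 0.05 was found for 13 CYP3, 8 CYP4, 2 mitochondrial and 0 CYP2 members (35.1%, 28.6%, 22.2% and 0%), beside 27.9% of all genes. The CYP4 clan had 20 of 28 positive differences with a median of 0.24, and the CYP3 clan 21 of 37 with a median of 0.06. These medians stand beside the all-gene median of -0.07, which became -0.66 under centring on neuronal markers. The mitochondrial median was -0.12.

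Of the 15 members listed for xenobiotic and insecticide metabolism, 3 passed in both against glia (Cyp6w1 higher, Cyp6d2 and Cyp6a23 lower) and 2 in glia against neuron (Cyp6d2 and Cyp6a23, higher), beside 7.86% and 3.24% of all genes. With the replicate block Cyp6w1 was lost from the first and Cyp6a23 from the second. Cyp6g1, whose overexpression gives DDT resistance, had 604, 435, 405 and 303.1 in both-group, 432, 337 and 456 in glia, 385, 495 and 794 in neuron and 294, 395 and 375 in control libraries. Its groups overlapped, and neuron 3 had the highest value. The largest difference from control was 0.60 in neuron (SE 0.27, limma adjusted p = 0.399). Cyp28d1, linked to nicotine resistance, had 589, 290, 324 and 416 in both-group, 336, 269 and 348 in glia, 347, 372 and 537 in neuron and 296, 359 and 351 in control libraries, again with overlapping groups (0.22, SE 0.22, adjusted p = 0.630 for both against control). Cyp9f2, an abundant CYP3-clan gene, ranged between 459 and 797 over the 13 libraries and differed by 0.20 or less in each of the 6 pairwise comparisons, but under centring on neuronal markers it was called lower in both against glia (-0.77, adjusted p = 0.0205).

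Of the 6 measured genes listed for hormones and development, none passed in any comparison. In both against glia all 6 had a positive difference, with a median of 0.29, where 43.7% of all genes were positive and where centring on neuronal markers shifted the median of all genes to -0.66. Cyp303a1, needed for sensory bristles, had 25.5, 20.5, 10.4 and 13.5 in both-group, 14.3, 8.16 and 24.9 in glia, 22.2, 20.0 and 19.2 in neuron and 11.2, 14.2 and 7.95 in control libraries. Its neuron libraries lay above the controls, with a difference of 0.86 (SE 0.41, limma adjusted p = 0.418). Cyp6g2, known from the corpora allata where juvenile hormone is made, had 74.1, 95.7, 17.1 and 89.8 in both-group, 36.4, 30.6 and 73.7 in glia, 78.0, 79.1 and 110 in neuron and 57.0, 121 and 59.6 in control libraries. Library both 3 was its lowest, and glia against neuron gave -1.0 (SE 0.56, adjusted p = 0.321); its exons overlap those of Cyp6g1. Cyp301a1, of the mitochondrial clan and needed for the adult cuticle, ran between 2.17 and 18.3 in overlapping groups.

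None of the 6 genes listed for behaviour and the head passed either. Cyp4d21, known as sex-specific enzyme 1 and tied to male courtship, had 626, 566, 1982 and 1138 in both-group, 402, 266 and 766 in glia, 772, 697 and 514 in neuron and 568, 467 and 1142 in control libraries. It varied as much within groups as between them, and both against glia gave 1.12 (SE 0.46, limma adjusted p = 0.136; 0.0490 without glia 4). Cyp4g15, a relative of Cyp4g1 expressed in the nervous system, had 425, 351, 405 and 366 in both-group, 329, 183 and 322 in glia, 420, 379 and 365 in neuron and 298, 293 and 358 in control libraries. Its both-group and glia libraries did not overlap (0.52, SE 0.18, adjusted p = 0.0868; 0.0479 without glia 1 and 0.0412 without glia 4), and the difference was -0.067 with libraries centred on neuronal markers. Cyp6a20, tied to aggression, had a mean of 326 ± 61.6 in both-group, 285 ± 67.5 in glia, 359 ± 10.3 in neuron and 371 ± 62.5 in control libraries (SD, n = 4, 3, 3 and 3). Cyp6a17, tied to temperature preference, had 117 ± 8.39 in both-group, 105 ± 27.6 in glia, 116 ± 5.61 in neuron and 105 ± 22.6 in control libraries, and neither gene passed in any comparison under the authors' scaling (smallest limma adjusted p 0.292 for Cyp6a20). Centred on neuronal markers, Cyp6a20 was called lower in both against control (-0.66, adjusted p = 0.0435).

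Library-to-library spread differed widely within the family. The pooled SD within groups, on the log2 scale, had a median of 0.358 over the members and 0.317 over all tested genes. Among genes with a mean of at least 100 the medians were 0.264 for the 29 members and 0.195 for 4925 genes. Cyp6a13 was the steadiest member, at 83.5 to 108 in all 13 libraries with an SD of 0.0798, followed by Cyp4ac3 (0.139) and Cyp6u1 (0.151). Cyp4e3 had the widest spread, with an SD of 1.80, then Cyp6a18 (1.65), Cyp312a1 (1.59) and Cyp6a19 (1.52). Library glia 2 held the lowest value of 24 members (30.8%, with 21.2% of all genes), and both 1 held the highest of 15 (19.2%, with 7.87% of all genes).

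The wide spread of Cyp4e3 followed the labelled batch. It had 553 and 187 in both 3 and 4 but 61.3 and 36.7 in both 1 and 2, and 257 in glia 4 but 41.6 and 88.7 in glia 1 and 2. It had 1047 in neuron 3 but 31.0 and 59.1 in neuron 1 and 2, and 235 in control 3 but 52.1 and 78.1 in control 1 and 2. In every group the libraries of batches 3 and 4 were thus above those of batches 1 and 2, and the groups overlapped. Cyp305a1 was higher in the same way, with 116 to 157 in batches 3 and 4 and 80.5 to 98.2 in batches 1 and 2. Such separation in all 4 groups held upward for 2 members (2.56%, beside 1.99% of all genes) and downward for 2 (2.56%, beside 1.17%).

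Those lower in batches 3 and 4 were Cyp4d20 and the low-level Cyp313a4. Cyp4d20 had 122 and 90.7 in both 3 and 4 but 236 and 164 in both 1 and 2, and 70.5 in glia 4 but 176 and 142 in glia 1 and 2. It had 80.7 in neuron 3 but 174 and 179 in neuron 1 and 2, and 95.4 in control 3 but 169 and 173 in control 1 and 2. These 4 genes and Cyp4d21 show no group difference past the threshold. What the batches differed in is not labelled.

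**Figure D5:**
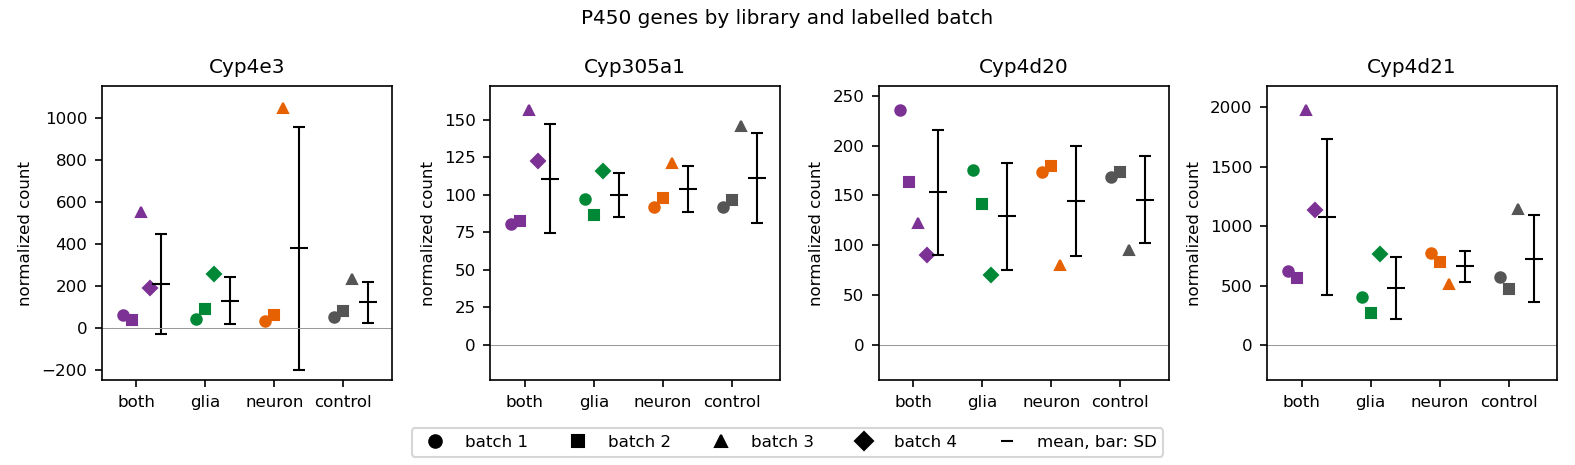
Normalized counts of Cyp4e3, Cyp305a1, Cyp4d20 and Cyp4d21 by library, with the mean and SD of each group and marker shapes for the labelled batch. Triangles and diamonds (batches 3 and 4) lie above circles and squares in every group for Cyp4e3 and Cyp305a1 and below them for Cyp4d20, whereas Cyp4d21 follows the batch in 3 of the 4 groups and not in neuron libraries.

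Genes that work with the P450s were also counted. Their calls come from the main fit only and were not followed in the other settings or in fits that left out 1 library. No P450 named after its Halloween mutant (6 measured) and no electron donor (6 of 7 listed were measured) passed in any comparison. Cpr, the reductase that supplies electrons to microsomal P450s, had 1041, 851, 1013 and 973 in both-group, 1207, 2225 and 1260 in glia, 954, 1040 and 930 in neuron and 1881, 1178 and 1341 in control libraries. All both-group libraries were below all glia and control libraries (-0.63, SE 0.20, limma adjusted p = 0.0716 against glia, and -0.57, SE 0.20, adjusted p = 0.168 against control).

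Of 12 regulators, 1 passed in both against glia, where 7.86% of all genes did. It was ss, which encodes Spineless, the fly counterpart of the vertebrate aryl hydrocarbon receptor. It had 67.7, 85.4, 73.7 and 47.3 in both-group against 52.0, 21.4 and 32.5 in glia libraries, with 1 overlapping library in each, and the difference was 0.99 (SE 0.28, limma adjusted p = 0.0488). Of 4 genes for juvenile hormone breakdown, Jheh3, a juvenile hormone epoxide hydrolase, had 80.5, 64.9, 75.9 and 101 in both-group, 218, 154 and 124 in glia, 67.4, 95.5 and 68.2 in neuron and 68.2, 63.9 and 86.1 in control libraries. Glia libraries were the highest throughout, at 1.15 against control (SE 0.23, adjusted p = 0.0421) and 1.07 against neuron (SE 0.23, adjusted p = 0.0248), and the both group was at -1.01 against glia (SE 0.22, adjusted p = 0.0164). In these comparisons, in that order, 0.772%, 3.24% and 7.86% of all genes passed. No other gene of the juvenile hormone list passed in any comparison.

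Of 16 UDP-glycosyltransferases, which attach sugars to oxidised products, 2 were lower in both-group than in glia libraries and none higher, where 4.75% of all genes were lower, and the same 2 were higher in glia than in neuron libraries, where 2.66% of all genes were higher. Ugt86Dj had 1.28, 1.71, 0.744 and 0.965 in both-group, 11.7, 15.3 and 16.3 in glia, 0 in all 3 neuron and 1.24, 3.04 and 2.65 in control libraries. It passed in glia against control (2.25, SE 0.41, limma adjusted p = 0.0275) and both against glia (-2.83, SE 0.39, adjusted p = 0.00133). Ugt86Dh had 8.94, 2.56, 0.744 and 4.83 in both-group, 42.9, 52.0 and 17.3 in glia, 0, 5.46 and 3.84 in neuron and 4.96, 11.2 and 11.9 in control libraries, with a both against glia difference of -3.0 (SE 0.72, adjusted p = 0.0278). In glia against neuron the differences were 3.93 for Ugt86Dj (SE 0.41, adjusted p = 0.000471) and 3.47 for Ugt86Dh (SE 0.77, adjusted p = 0.0297). Like Cyp6a18, these genes were highest in the glia libraries, where the sum of the midgut markers was also highest. Single midgut markers, chosen here after their values were seen, differed: Myo61F, a brush border myosin of the midgut, had 110, 66.6, 43.2 and 134 in both-group, 515, 581 and 583 in glia, 49.7, 64.6 and 52.8 in neuron and 128, 110 and 137 in control libraries, whereas the protease gene betaTry had 304.6 in glia 4 against 1903 in control 3. Their part in these values was not tested.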

How the data were processed

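Heads were pooled and sequenced as total RNA with ribosomal RNA depleted, in stranded paired-end libraries, per the labels' protocols. Tools listed without versions, per the submitters' processing notes, are DESeq2, featureCounts, FastQC, MultiQC, Salmon and STAR, with the build BDGP6. The deposited values are a signal, called adjusted counts per the file headers. Within a library every value equals a read count over a fixed factor, with 1 added. Once 1 was subtracted, 100% of values were whole reads within 0.01. They are not whole counts as deposited, so limma was used and not a count model.

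Members were matched by symbol in the table. Of its 12286 genes, 12147 had IDs in the gene name table. Coordinates and exon lengths came from an Ensembl annotation of BDGP6, with 77 members matched by ID and 1 by symbol. Values under the filter removed 105 genes. Limma 3.58.1 in R 4.3.3 (limma-trend, 13 libraries, 4 groups, 9 residual degrees of freedom, two-sided) was fitted to log2(normalized count + 1) and tested on simulated data first. Floors are 3 reads over a group and cover counting error only. A permutation test of 3 against 3 libraries cannot go below p = 0.1. Figures used Python 3.11.15 and matplotlib 3.10.9.

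Members described by name were those past the threshold, the 8 highest means, the 3 smallest p values per comparison and up to 4 per role list. Cyp6a13, Cyp4ac3, Cyp6u1, Cyp6a19, Cyp4e3, Cyp305a1, Cyp4d20, Cyp313a4 and the organ markers Uro and Myo61F were singled out after their values were seen. The members, role lists and marker lists were chosen with earlier results of these data known. Labels make a replicate number a batch, so numbers pair libraries by label. Deviations from group means in the 16 same-batch pairs had a median correlation of 0.07, with 5 pairs over 0.1. A fit with batch as a replicate block has 6 residual degrees of freedom. Nothing says that pools came from separate crosses, so p-values measure the spread between pools.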

Additional observations from a re-analysis of the deposited data

Results flagged for a closer look

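Cyp313a1 had 2329 normalized counts in library both 3, far from the other 3 both-group libraries at 1171 to 1311. The gap took 0.88 of the group's range, above Dixon's critical value of 0.829 for 4 values. Such a gap was looked for in 24 sets of both-group values (the named genes and the summed members), and chance gives about 1 in 20. Both 3 also held the highest Cyp4d21 value, 1982.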

How the results depend on the processing

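The count of 0 members in glia against control became 2 with a pseudocount of 5, and 1 with the offset kept, with no filter and with TMM scaling, all higher; it was 0 in all fits leaving out 1 library. Neuron against control gave 0 to 1 (1 without control 3). Both against control gave 3, all lower (Cyp6a18, Cyp6a20 and Cyp12a5, with 8.01% of all genes), centred on neuronal markers, and 0 to 2 leaving out 1 library (2 without glia 2, with 7.13% of all genes). Both against glia, with 7, gave 17 centred (26.6% of all genes), 2 without control 1 and glia 2 together (2.91%), and 2 to 10 leaving out 1 library (2 without both 2, with 3.94% of all genes, 3 without glia 2, with 3.56%, and 10 without glia 4, where 15.7% of all genes passed). Glia against neuron, with 3, gave 1 with the replicate block (1.74% of all genes), 1 without control 1 and glia 2 (1.18%), and 0 to 7 leaving out 1 library (0 without neuron 1 or neuron 2, with 1.14% and 2.19% of all genes, 1 without glia 2, with 1.46%, and 7 without glia 4, where 9.92% of all genes passed). The block left 6 in both against glia, limma-voom 6. Of the named genes, Cyp4g15 (-0.067) and Cyp6a17 (-0.41) reversed in both against glia when centred, and none reversed in the other settings. Leaving out 1 library moved the members' medians across 0, by less than the spread between libraries, in glia against control (-0.03 to 0.15), both against glia (-0.0037 to 0.17), both against neuron (-0.05 to 0.12), glia against neuron (-0.13 to 0.07) and the interaction (-0.12 to 0.08). They moved by more than that spread under centring, to -0.29 (neuron against control), -0.30 (both against control), -0.49 (both against glia), 0.45 (glia against neuron) and -0.22 (interaction). Over the named genes, 42 of the leave-one-out values and 20 of the other values lost the threshold, and 12 and 6 gained it. Cyp4ad1 could not be tested under a filter of 10. The cause of these moves was not tested. With 3 or 4 pools a group, depth limits genes under 10 normalized counts.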
